A study of Homo sapiens with 24 samples.

Results

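Solute carriers are the membrane proteins that move nutrients, metabolites, ions, vitamins and drugs across the plasma membrane and the membranes of mitochondria and other organelles, and they are numbered SLC families by sequence and substrate. The genes described here are the 97 solute carrier genes with a clear signal in HepaRG cells that were detached and replated. A gene was taken if its probe set carried a single annotated symbol that starts with SLC and a digit, and if its mean signal reached 300 in at least 1 of the 8 time groups, on the probe set with the highest mean of log2(signal + 18). On the array 238 genes met the first condition, 191 of them passed the filter on low signals and were tested, and 97 reached 300. The signals themselves therefore chose the members, and levels are given as a description.

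HepaRG is a human liver progenitor line that yields hepatocyte-like and biliary-like cells. In all 8 groups the cells had been grown for 2 weeks and then kept for 2 weeks in 2% DMSO, after which hepatocyte-like cells were lifted by mild trypsin treatment and plated again at low density to start reprogramming. RNA was taken at the start (0 h) and after 1, 4 and 8 h, then after 12 and 16 h and finally after 24 and 48 h, with 3 Affymetrix arrays per time and 24 in all. The cells are 1 line and carry no other treatment. Arrays were scaled to a common mean by the authors, and their number limits the precision. Of the 24 arrays, 21 correlated best with another array of the same time. The ratio of the 3' to the 5' probe set of ACTB, a sign of RNA quality, reached 6.91 on 0 h replicate 2. It was 1.02 to 2.12 on the arrays at 1 h and later, and replicates 1 and 3 of 0 h had 2.03 and 2.56. Where the largest change of a named gene loses its call without that array, this is said beside the gene. Counts of members without it are given at the end. Hepatocyte markers identified the starting cells. The summed signal of 11 of them was 394319 to 434516 at 0 h, and at 48 h, where it was 121135 to 135727, all 11 were called lower. The summed signal of 7 bile duct markers was 16227 to 20558 at 48 h and 4771 to 5259 at 0 h, most of it from KRT19. Of 8 fibroblast markers, 3 were called higher at 48 h (DCN, LUM and ACTA2) and the rest were not called. The median log2 change of the 8 was 0.39, and their summed signal was 3844 to 4997 at 48 h and 2014 to 2220 at 0 h. Of all genes, 9.82% were called higher and 11.7% lower at 48 h. In bulk RNA, fewer cells of a type and less RNA per cell cannot be told apart, and the part of cell composition in the results below was not tested.

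The liver uses these proteins for its defining tasks. Carriers in the blood-facing membrane of the hepatocyte take up bile salts, organic ions and amino acids, facilitative hexose carriers let glucose in and out, carriers of the endoplasmic reticulum feed glucose release and glucuronidation, and mitochondrial carriers connect the urea cycle, fatty acid oxidation and fat synthesis with the cytosol. Growing cells are known instead for the uptake of amino acids, including cystine, which limits glutathione synthesis. The families represented by the most members were SLC25, the family of the mitochondrial carriers, with 20, and SLC35, the family of the nucleotide sugar carriers, with 12. SLC2 and SLC39 had 5 members each, SLC7 had 4, SLC27 had 3, SLC22 had 2 and SLC16 had 1. The members just inside the threshold were SLC10A3, whose highest group mean was 302.6 at 4 h, SLC17A4 with 301 at 0 h and SLC25A14 with 301 at 24 h. Those just outside were SLC67A1-AS with 299 at 0 h, SLC38A3 with 299 at 1 h and SLC35H1 with 297 at 4 h. The symbols SLC2A4RG and SLC4A1AP meet the rule by their letters, but these genes encode proteins that are not carriers.

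Over the whole course 62 of the 97 members were called by limma's F-test over the 7 comparisons with 0 h, which asked for an adjusted p under 0.05 and a difference of at least 2-fold from 0 h at some time. The same rule called 36.6% of all 9966 genes tested and 46.7% of the 5841 genes that reached a signal of 300 in some group, as all members had to. By single comparisons with 0 h, also 62 members were called at some time. Of these, 21 were higher at 1 or more times and never lower, 40 were lower and never higher, and SLC26A2 was called both ways. The rule itself bears on these numbers. Of the 21, 13 had reached 300 only after 0 h, and of the 40, 7 had reached 300 in no group after 1 h. Such genes could only have entered the list by differing between times, and nothing is read from the counts about solute carriers as a class. The 13 were SLC10A3, SLC12A4, SLC19A1, SLC25A17, SLC2A6, SLC35C1, SLC35F2, SLC35G2, SLC3A1, SLC4A2, SLC7A1, SLC7A6 and SLC7A11. SLC26A2 also reached 300 only after 0 h. The 7 were SLC16A10, SLC17A4, SLC25A10, SLC25A36, SLC27A5, SLC31A2 and SLC38A4. This limit holds wherever such genes are counted in a group below. Among the 48 members that stayed at 300 or more in all 8 groups, 4 were called higher and 9 lower at 48 h, beside 9.82% and 11.7% of all genes.

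At 1 h, 2 members were higher and 0 lower than at 0 h, while 2.22% of all genes were called higher and 0.602% lower. At an unadjusted p under 0.05 in limma, 6 members were higher and 9 lower at 1 h, beside 6.79% and 9.7% of all genes. At 4 h the counts were 9 higher and 17 lower, beside 7.6% and 7.10% of all genes. At 8 h they were 14 higher and 25 lower (8.41% and 10.1% of all genes), at 12 h 13 and 27 (8.72% and 10.6%), and at 16 h 12 and 28 (9.19% and 11.9%). At 24 h they were 15 higher and 26 lower (10.4% and 11.2%), and at 48 h 16 higher and 24 lower (9.82% and 11.7%). Most members that were ever called were first called at 4 h, with 9 higher and 17 lower, or at 8 h, with 7 higher and 12 lower. The log2 change, the later group's mean of log2(signal + 18) minus that of 0 h, had a median over the members of -0.38 at 4 h, -0.50 at 8 h and -0.27 at 48 h, where that of all genes was -0.16, -0.15 and -0.12. The split depends on scaling. The share of higher genes among the called members was 34.6%, 35.9%, 32.5%, 30%, 36.6% and 40% from 4 h to 48 h, and 48%, 45.9%, 48.6%, 48.5%, 52.9% and 47.2% with every array centred on its median. That centring moved the median change of all genes at 48 h to 0.14, and changes smaller than this shift are not read as directions.

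**Figure D1:**
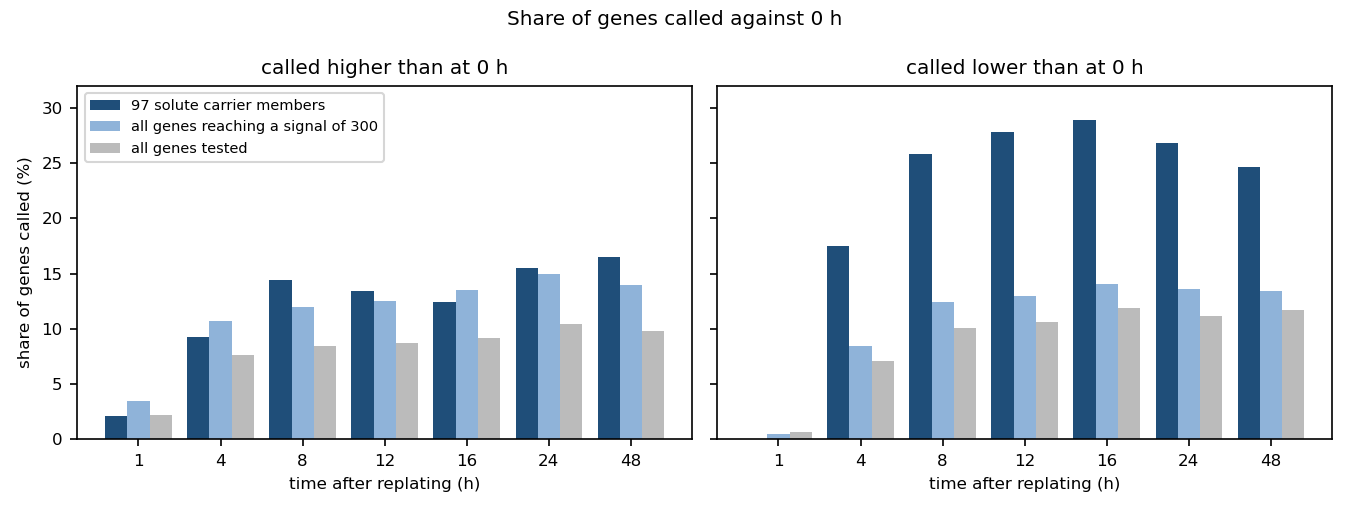
Share of genes called higher (left) or lower (right) than at 0 h, in percent, at each time after replating in hours, for the 97 solute carrier members, all genes that reached a signal of 300 in some group, and all genes tested. The share of members called lower was 17.5% at 4 h and 28.9% at 16 h, beside 7.1% and 11.9% of all genes. Among genes that reached 300 it was 8.47% and 14.1%. Over all 191 solute carrier genes tested, with no threshold of 300 (not drawn), it was 9.42% and 17.8%. The share of members called higher was 16.5% at 48 h, beside 14% of genes that reached 300 and 9.82% of all genes. The signals chose the members, so nothing is read from these shares about solute carriers as a class.

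**Figure D2:**
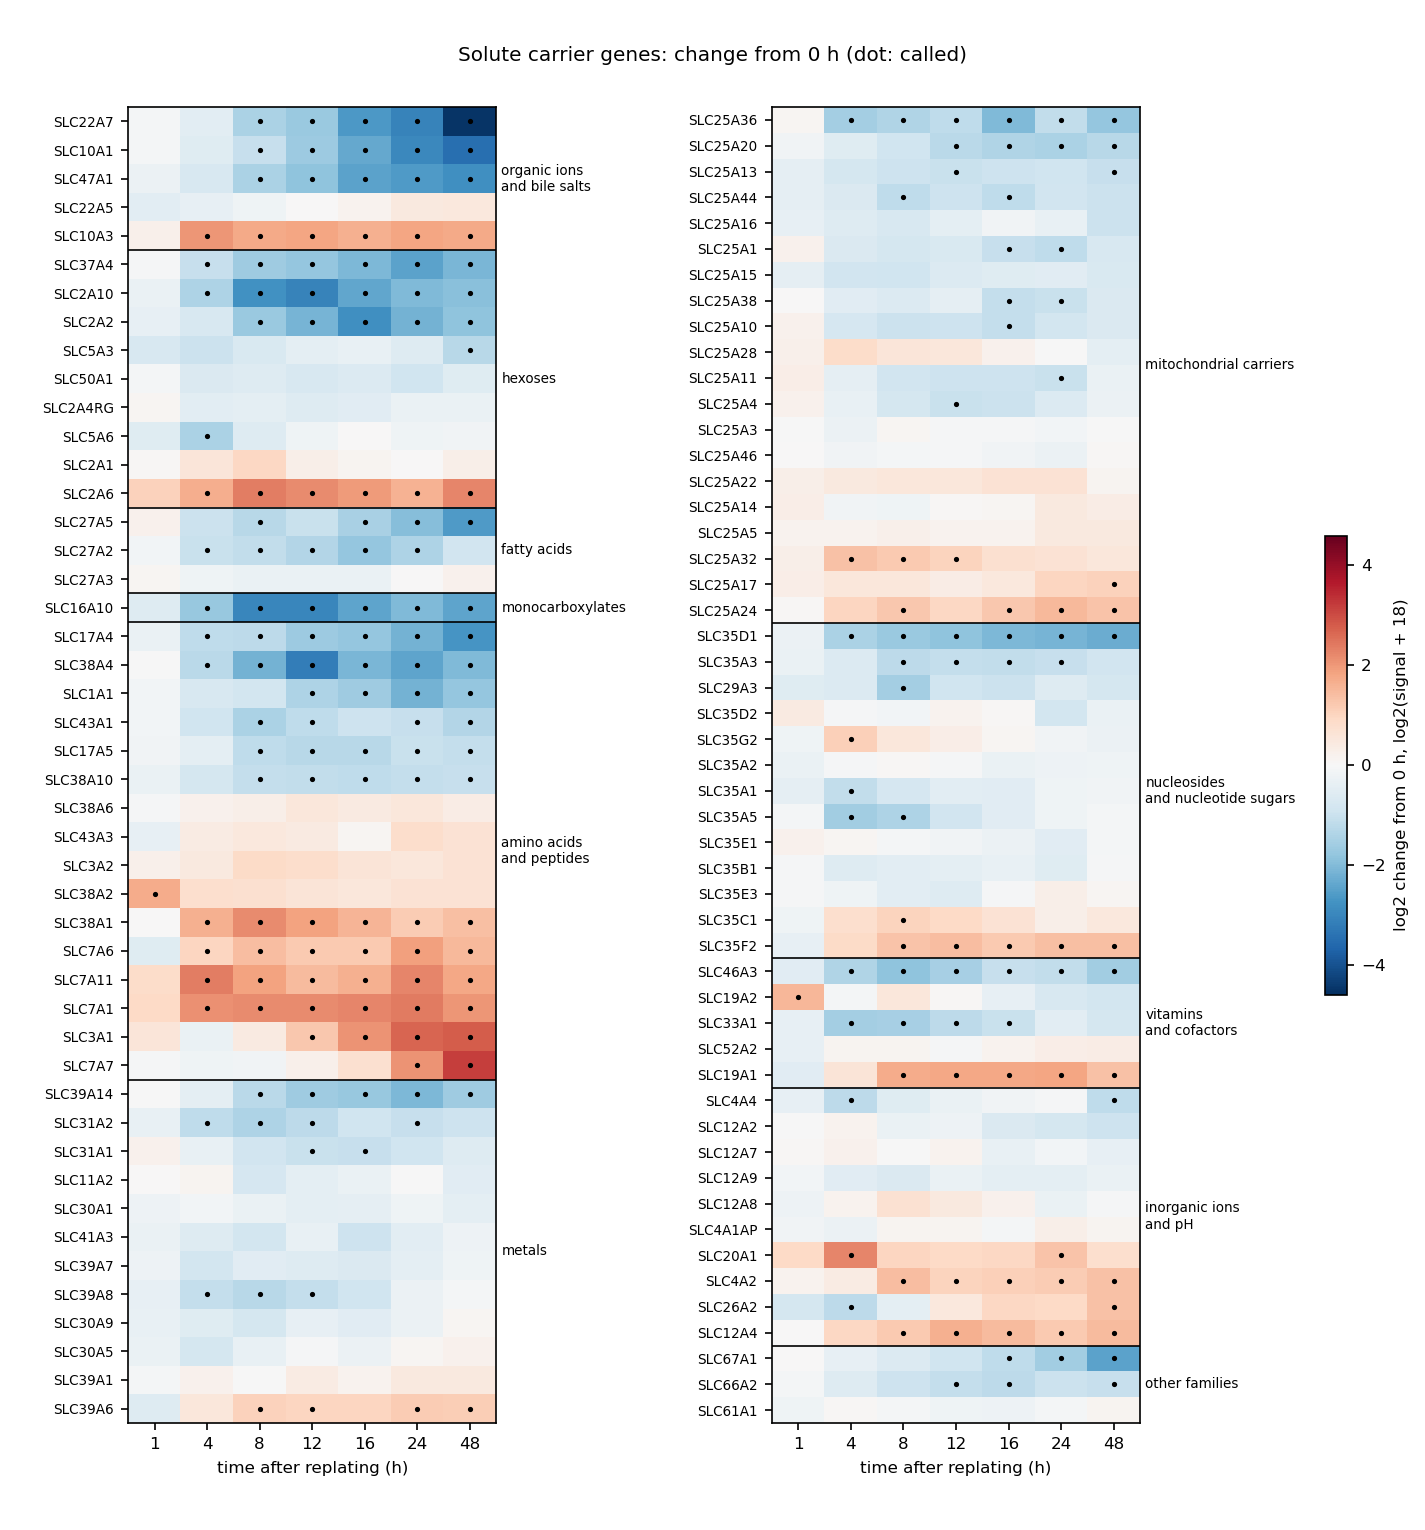
Log2 change from 0 h on the log2(signal + 18) scale for each of the 97 members (rows) at 1 to 48 h after replating (columns), grouped by the substrates of their family number, with a dot where the gene was called. Rows of deep blue, lower than at 0 h, include SLC22A7, SLC10A1 and SLC2A2, and rows of red, higher than at 0 h, include the 4 SLC7 members.

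The 2 members that fell furthest by 48 h, SLC22A7 and SLC10A1, were carriers of organic anions and bile salts. Of the 5 members that carry bile salts, organic anions or organic cations by their family numbers, 3 were called lower at 48 h (SLC22A7, SLC10A1 and SLC47A1), 1 was called higher (SLC10A3) and SLC22A5 was not called. Of all genes, 11.7% were called lower and 9.82% higher at 48 h. All 3 falls were first called at 8 h and deepened at each later time by their fitted change. SLC10A1 (NTCP), the sodium-dependent carrier that takes conjugated bile salts from blood into hepatocytes, had signals of 99.9, 91.3 and 75.03 at 48 h, against 1072, 1135 and 1269.5 at 0 h. The 2 groups did not overlap and lay far apart. The log2 change was -3.47 ± 0.26 (SE; adjusted p = 5.95e-13, limma), or a 11.1-fold fall. Its means in the 8 time groups, in order of time, were 1159, 1111, 807, 542, 353, 212, 139.7 and 88.7. SLC10A1 fell further between 12 h and 48 h, by -1.78 ± 0.26 on the log2 scale as 48 h minus 12 h (adjusted p = 2.99e-06).

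SLC22A7, an organic anion carrier of the hepatocyte's blood-facing membrane, had signals of 4.33, 9.64 and 70.2 at 48 h, against 1015, 778 and 763 at 0 h. All 3 late values were far below the early ones, and 2 of them were in the range of the lowest signals on the arrays. Its log2 change was -4.51 ± 0.40 (adjusted p = 3.51e-11). How far it fell depends on the handling of such dim signals, since the change was -5.88 with no pseudocount, -3.23 with a larger one and -5.12 without 48 h replicate 3. The other tested probe sets of SLC22A7 changed by -3.68 and -2.05. SLC47A1, which exports organic cations and drugs such as metformin into bile in exchange for protons, had signals of 361, 327 and 382 at 48 h, against 2469, 2701 and 2727 at 0 h. The arrays of each time lay close together, and the log2 change of -2.82 ± 0.16 (adjusted p = 5.85e-16) had a small error. SLC67A1, formerly SLC22A18 and a relative of the organic cation carriers that its current number places among the other families, fell late. Its signals were 819.7, 1253 and 1315 at 48 h and 6342, 5325 and 6764 at 0 h, with no overlap. It was first called at 16 h (-1.16 ± 0.15) and stood at -2.45 ± 0.15 at 48 h (adjusted p = 3.99e-15).

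The remaining members of this group went another way. SLC22A5, which takes up carnitine, had signals of 455, 378 and 359.7 at 48 h and 214, 326 and 317 at 0 h, and its log2 change of 0.47 ± 0.29 was not called (adjusted p = 0.215). SLC10A3 shares its family number with the bile salt carrier, but its substrate is not known. It had signals of 329, 304 and 275 at 4 h, against 53.8, 37.02 and 104 at 0 h, and was called higher from 4 h on. Its change was 2.03 ± 0.33 at 4 h and 1.73 ± 0.33 at 48 h (adjusted p = 6.11e-05). SLC10A3 reached the threshold of 300 only at 4 h.

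**Figure D3:**
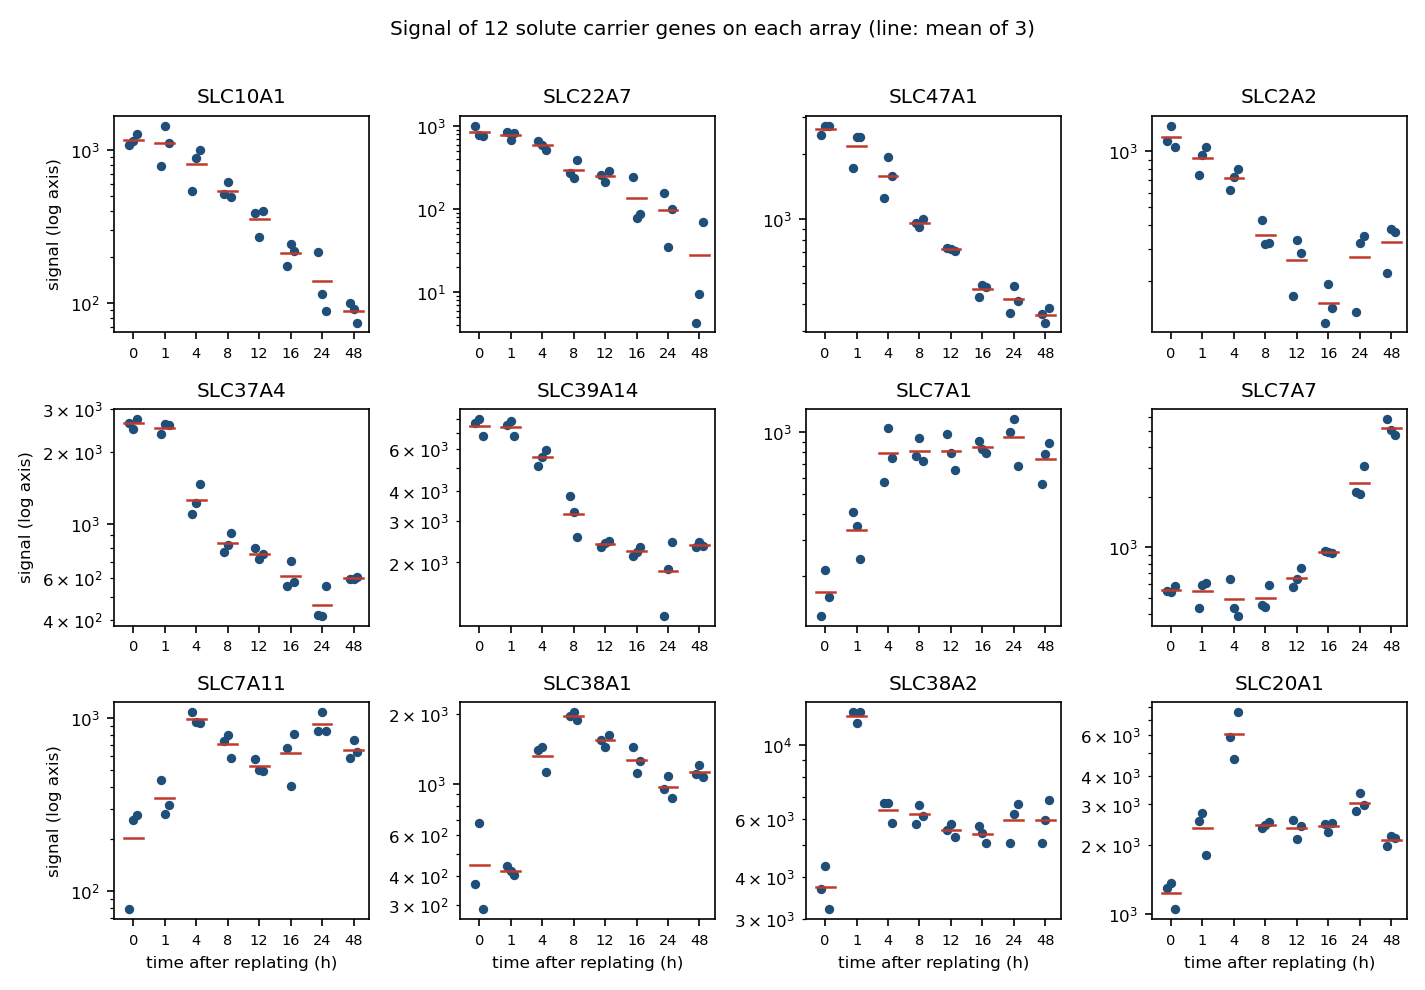
Signal on each of the 24 arrays (points, log axis) and the mean of the 3 arrays of each time (red lines) for 12 members, against time after replating in hours. SLC10A1, SLC22A7 and SLC47A1 decline through 48 h, SLC2A2, SLC37A4 and SLC39A14 reach their lowest means at 16 h or 24 h, SLC38A2 peaks at 1 h, SLC7A11 and SLC20A1 at 4 h and SLC38A1 at 8 h, and SLC7A7 climbs after 12 h.

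Among the 9 members with family numbers of hexose and glucose 6-phosphate carriers, more were lower than higher from 8 h on. The group is formed by number alone and so includes SLC2A4RG, SLC5A3 and SLC5A6. At each time from 8 h to 24 h, 3 were lower (SLC2A2, SLC2A10 and SLC37A4) and 1 higher (SLC2A6). At 48 h 4 were lower, these 3 and SLC5A3, and 1 was higher, again SLC2A6. From 8 h to 24 h, 10.1% to 11.9% of all genes were lower and 8.41% to 10.4% higher. At 48 h the shares were 11.7% and 9.82%. SLC2A2 (GLUT2), the main glucose carrier of hepatocytes, had signals of 120.3, 194 and 145 at 16 h, against 1135, 1378 and 1061 at 0 h. Every 16 h value was below every 0 h value by a wide margin, with a log2 change of -2.84 ± 0.27 (adjusted p = 2.80e-10). At 48 h its signals were 223, 385 and 371, for a change of -1.84 ± 0.27. SLC37A4 carries glucose 6-phosphate into the endoplasmic reticulum, where it is split to free glucose. Its signals were 419, 417 and 552 at 24 h and 2638, 2485 and 2737 at 0 h. These groups were tight and did not overlap, and the change was -2.47 ± 0.14 (adjusted p = 2.48e-15), with -2.43 on its other probe set.

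SLC2A10, another facilitative hexose carrier, reached its lowest mean at 12 h, with signals of 125, 90.2 and 59.5, against 743, 987 and 949 at 0 h. The change was -3.09 ± 0.27 (adjusted p = 6.80e-11). It then regained part of its signal, with 263, 191 and 208 at 48 h and a called difference between 48 h and 12 h of 1.16 ± 0.27 (adjusted p = 0.0025). SLC2A10 at 48 h was still -1.93 ± 0.27 from 0 h. SLC2A1 (GLUT1), the widespread basal glucose carrier, had signals of 832, 596 and 1107 at 8 h and 509, 284 and 483 at 0 h. Its 8 h change of 0.96 ± 0.24 had an adjusted p of 0.0014 but missed the 2-fold limit, and another probe set of the same gene changed by -0.28. SLC2A6, a hexose carrier found on internal membranes, had signals of 787, 438 and 449 at 8 h, against 8.83, 219.7 and 187 at 0 h. The 0 h values were scattered, with replicate 1 far below the other 2. The change of 2.34 ± 0.44 (adjusted p = 6.79e-05) was 1.33 without 0 h replicate 1 and was still called. SLC2A4RG, a regulatory protein, was not called at any time. SLC5A6 carries biotin and pantothenate although its family is known for glucose. It was lower at 4 h only, with signals of 148, 119.7 and 164 against 466, 418 and 376 at 0 h and a change of -1.44 ± 0.25 (adjusted p = 2.51e-05), and 12 h was above 4 h by 1.24 ± 0.25 (adjusted p = 3.47e-04).

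Of the 3 fatty acid members, SLC27A5 and SLC27A2 fell and SLC27A3 was not called. SLC27A5, which joins bile acids and fatty acids to coenzyme A in the liver, had signals of 71.6, 76.2 and 19.7 at 48 h, against 394, 466 and 337 at 0 h, with a change of -2.60 ± 0.43 (adjusted p = 7.36e-06). With a larger pseudocount it was -1.89. SLC27A5 was also lower at 48 h than at 12 h, by -1.59 ± 0.43 (adjusted p = 0.0075). SLC27A2, a very long-chain acyl-CoA synthetase that also takes up fatty acids, was lowest at 16 h, with signals of 477, 405 and 361 against 1064, 1938 and 1495 at 0 h. The change was -1.78 ± 0.26 (adjusted p = 1.12e-06), and -2.25 on its other probe set. At 48 h SLC27A2 had signals of 771, 585 and 1020.1 and a change of -0.90 ± 0.26, which was no longer called. The only member of the monocarboxylate family, SLC16A10, carries aromatic amino acids. It had signals of 51.1, 37.2 and 89.1 at 12 h, against 540.0, 572 and 615 at 0 h, and its change was -2.999 ± 0.37 (adjusted p = 5.53e-08), or -2.31 with a larger pseudocount.

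The members with family numbers of amino acid carriers divided. Of these 16 members 6 were higher and 6 lower at 48 h, beside 9.82% and 11.7% of all genes. At 4 h 4 were higher and 2 lower, beside 7.6% and 7.1%. The group is formed by number alone, so the lower ones at 48 h include the anion carrier SLC17A4. SLC16A10, also lower at 48 h, is counted with its own family. All 4 members of SLC7 were called higher at 24 h and at 48 h, and 3 of them at every time from 4 h. Of the 4, SLC7A1, SLC7A6 and SLC7A11 reached the threshold of 300 only after 0 h, so their rise let them into the list. Of the 5 other SLC7 genes tested, which stayed under 300, SLC7A9 was called lower at 24 h and the rest were not called at any time. SLC7A1 carries arginine and lysine into cells. It had signals of 1003, 1162 and 689.9 at 24 h, against 129, 215 and 159 at 0 h. No value at 4 h or later fell to the level of 0 h, and its means in the 8 time groups, in order of time, were 168, 335, 792, 812, 811, 846, 952 and 745. The change at 24 h was 2.38 ± 0.23 (adjusted p = 3.14e-10), and on its 2 other tested probe sets it was 1.59 and 0.02, so the mean over the 3 probe sets was 1.33. Between 1 h and 4 h SLC7A1 rose by 1.18 ± 0.23 (4 h minus 1 h; adjusted p = 1.83e-04).

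SLC7A11 (xCT) exchanges glutamate for cystine in a pair with the heavy chain SLC3A2. Its signals were 1078, 946 and 938 at 4 h and 78.7, 257 and 274 at 0 h. The 4 h values were close together and all above the 0 h values, of which replicate 1 was the lowest. The change was 2.34 ± 0.27 (adjusted p = 3.25e-08), 1.82 without 0 h replicate 1, and 1.97 and 0.84 on the other probe sets. The means of SLC7A11 ran unevenly after 4 h, at 203, 344, 988, 706, 525, 629, 919 and 656 over the 8 times from 0 h to 48 h. SLC7A6, an exchanger of cationic for neutral amino acids, had 474, 553 and 619 at 24 h and 141, 153 and 115 at 0 h, a change of 1.88 ± 0.25 (adjusted p = 2.34e-07). Its other probe sets changed by 0.84 and 0.60.

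SLC7A7 does the same exchange and, of the 4 SLC7 members, was first called latest and rose furthest. Its signals were 5883, 5052 and 4699.5 at 48 h, against 546, 543 and 587 at 0 h. The 8 group means, again from 0 h to 48 h, were 559, 549, 490.2, 496, 660.4, 937, 2442 and 5211, so the level through 8 h stayed near that of 0 h and nearly all of the rise lay between 16 h and 48 h. The change was 3.17 ± 0.18 at 48 h (adjusted p = 7.38e-16), or 9.03-fold, and 2.95 ± 0.18 between 12 h and 48 h (adjusted p = 2.08e-14). SLC3A2, the shared heavy chain of SLC7A6, SLC7A7 and SLC7A11, had signals of 1156, 1290.5 and 1539 at 8 h and 775, 650.2 and 716 at 0 h. It was higher at 8 h by 0.87 ± 0.20 (adjusted p = 5.47e-04), under the 2-fold limit and so not called. SLC3A1 (rBAT) is the heavy chain of another exchanger, that of cystine and basic amino acids in kidney and intestine. It had 370.4, 492 and 399 at 48 h, against dim signals of 27.5, 68.9 and 45.3 at 0 h. The change of 2.79 ± 0.39 (adjusted p = 4.28e-07) was 2.04 with a larger pseudocount, and it was first called at 12 h.

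The SLC38 carriers take up small neutral amino acids with sodium. SLC38A2, known to be induced when amino acids are scarce or cells shrink, was 1 of the 2 members higher at 1 h. Its signals were 12525, 11636 and 12552 at 1 h, against 3682, 4337 and 3209.6 at 0 h. Its 1 h values were all above those of any other time. The change was 1.71 ± 0.13 at 1 h (adjusted p = 4.20e-12) and 0.78 ± 0.13 at 4 h, which was not called. Its probe set may cross-hybridize with similar transcripts by its name, and the other probe set of SLC38A2 gave 1.61. SLC38A1 had signals of 1972, 2038 and 1884 at 8 h, against 369, 676 and 287 at 0 h. The change was 2.19 ± 0.19 (adjusted p = 2.70e-11), and its group means over the 8 times were 444, 421, 1323, 1965, 1541, 1272, 968 and 1127. SLC38A4, the member of this family that is typical of liver, fell. It had 72.8, 2.85 and 9.02 at 12 h, against 279, 372 and 315 at 0 h. The 12 h values were uneven and 2 were very low, so that the change of -3.19 ± 0.42 (adjusted p = 2.03e-07) was -4.70 with no pseudocount, -2.01 with a larger one and -3.83 without 12 h replicate 1.

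Other amino acid carriers also fell. SLC1A1, a carrier of glutamate and aspartate, had 158, 375 and 343 at 24 h, against 1169.8, 1440.0 and 1272 at 0 h, with a change of -2.16 ± 0.22 (adjusted p = 7.03e-10). SLC43A1, which lets branched-chain amino acids pass, had 354, 291 and 324 at 8 h and 754, 1035 and 957 at 0 h, with a change of -1.44 ± 0.18 (adjusted p = 9.77e-08). SLC17A4, an anion carrier that counts here by its family number, had 6.63, 56.1 and 44.2 at 48 h and 348, 238 and 319 at 0 h. Its change of -2.71 ± 0.45 (adjusted p = 8.42e-06) was -1.80 with a larger pseudocount.

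The sequences around the starts of SLC7A1 and SLC38A1 are shown because both genes were high from 4 h on and both windows hold TGATGNAA. This is the composite motif known to bind C/EBP and ATF factors in genes of the amino acid response. The 2 genes were picked for both traits, so the choice itself pairs motif and timing, and a link was not tested. Of the 9 members called higher at 4 h, only SLC7A1 and SLC38A1 had a match, though not every member has a window. The window of SLC7A7, which rose late, and that of SLC38A2, which peaked at 1 h, hold no match. Sequence outside the windows was not searched, so these genes may hold the motif elsewhere. Each window runs from 250 bases before to 50 bases after a RefSeq start of the gene (GRCh38.p14), on the gene's own strand, which is the minus strand for all 4, and capitals mark the motif. RefSeq's table gives 1 window for SLC7A1 and SLC38A2, 2 for SLC38A1, of which 1 holds the motif and is shown, and 3 for SLC7A7, none with the motif, of which 1 is shown. The windows lie at chr13:29595639-29595938 (SLC7A1), chr12:46266467-46266766 (SLC38A1), chr12:46372724-46373023 (SLC38A2) and chr14:22815386-22815685 (SLC7A7).
SLC7A1: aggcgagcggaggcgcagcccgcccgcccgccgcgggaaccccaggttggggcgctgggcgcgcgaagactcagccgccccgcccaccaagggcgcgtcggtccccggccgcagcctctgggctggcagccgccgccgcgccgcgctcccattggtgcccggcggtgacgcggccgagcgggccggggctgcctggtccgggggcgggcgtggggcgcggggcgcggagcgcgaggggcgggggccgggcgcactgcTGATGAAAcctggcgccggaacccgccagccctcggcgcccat
SLC38A1: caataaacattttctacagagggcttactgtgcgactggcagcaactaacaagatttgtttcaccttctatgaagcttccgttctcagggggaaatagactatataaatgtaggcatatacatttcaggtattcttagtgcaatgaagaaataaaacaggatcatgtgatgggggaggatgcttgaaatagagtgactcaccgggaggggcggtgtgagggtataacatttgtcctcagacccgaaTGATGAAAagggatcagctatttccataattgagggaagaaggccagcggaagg
SLC38A2: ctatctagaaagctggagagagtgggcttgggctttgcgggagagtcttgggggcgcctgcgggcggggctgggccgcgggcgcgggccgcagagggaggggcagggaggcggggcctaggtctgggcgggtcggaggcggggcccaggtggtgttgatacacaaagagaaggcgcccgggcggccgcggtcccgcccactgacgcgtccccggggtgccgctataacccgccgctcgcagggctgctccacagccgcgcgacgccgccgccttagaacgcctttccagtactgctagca
SLC7A7: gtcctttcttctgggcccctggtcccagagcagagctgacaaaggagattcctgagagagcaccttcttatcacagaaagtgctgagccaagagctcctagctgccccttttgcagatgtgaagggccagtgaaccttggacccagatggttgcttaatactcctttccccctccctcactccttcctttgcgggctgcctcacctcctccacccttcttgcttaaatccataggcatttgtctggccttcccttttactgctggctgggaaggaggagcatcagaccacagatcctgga
The motif was searched on both strands. It was present in 6 of the 87 members with a window in the RefSeq table, which is 6.90%, and in 4.46% of all 27305 genes of that table. Besides SLC7A1 and SLC38A1, these were SLC3A2, SLC11A2, SLC25A11 and SLC27A5, of which SLC3A2 was higher by less than 2-fold, SLC27A5 and SLC25A11 fell and SLC11A2 was not called. A match is a run of letters and not a measured binding site. ATF4, a factor of that response, was itself higher at 4 h, with a log2 change of 1.29. Of 12 measured genes of the response, ATF4 included, 2 were higher and 1 lower at 4 h, beside 7.6% and 7.1% of all genes. The 2 were ATF4 itself and ATF3 (1.04), and the lower gene was DDIT4 (-1.68). The rest of the list, with ASNS (-0.13) and TRIB3 (0.40), was not called at 4 h.

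Some members peaked early. SLC19A2, a thiamine carrier, was the other member higher at 1 h. Its signals were 891, 959.9 and 957 at 1 h, against 280.4, 360.3 and 294 at 0 h. The 1 h values formed a tight group above all other arrays of SLC19A2, the change was 1.54 ± 0.23 (adjusted p = 1.06e-05), and 4 h was below 1 h by -1.64 ± 0.23 (adjusted p = 1.27e-06). Without 0 h replicate 2, 5 members were called at 1 h, the others being SLC7A1, SLC7A11 and SLC2A6, with changes of 1.10, 1.08 and 1.62. SLC20A1, a sodium-phosphate cotransporter, peaked at 4 h with 5909, 4708 and 7562, against 1293, 1367 and 1050.0 at 0 h. The change was 2.26 ± 0.15 (adjusted p = 1.43e-13), and 12 h was below 4 h by -1.33 ± 0.15 (adjusted p = 1.11e-07). SLC35G2 was called higher at 4 h alone, with 609, 522 and 579.9 against 261, 309 and 202 at 0 h and a change of 1.11 ± 0.24 (adjusted p = 4.76e-04), or 0.96 and not called without 0 h replicate 3.

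Between later times, 11 members were higher and 9 lower at 4 h than at 1 h, while 6.48% of all genes were higher and 4.44% lower. Against 4 h, 12 h had 4 higher and 9 lower members (3.46% and 3.79% of all genes), and against 12 h, 48 h had 4 higher and 4 lower members (3.62% and 3.72%). The 9 lower at 12 h than at 4 h included SLC10A1, SLC22A7, SLC47A1, SLC2A2, SLC2A10 and SLC39A14. Higher at 48 h than at 12 h were SLC7A7, SLC3A1, SLC2A10 and SLC39A8, and lower were SLC22A7, SLC10A1, SLC27A5 and SLC67A1. The count of 4 higher was 2 without 12 h replicate 3, and the count of 4 higher at 12 h than at 4 h was also 2 without 4 h replicate 3.

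At each time, 13 or more of the 20 SLC25 members, most of them carriers of mitochondria, were not called, and those that were called moved both ways. In this family 1 member was higher and 6 were lower at 16 h, and 2 were higher and 3 lower at 48 h. Of all genes, 9.19% were called higher and 11.9% lower at 16 h, and 9.82% and 11.7% at 48 h. SLC25A20 brings acylcarnitines into mitochondria for fatty acid oxidation. It had signals of 582, 609.7 and 605 at 24 h, against 1702, 1549 and 1779 at 0 h. The arrays agreed closely within each time, and the change was -1.46 ± 0.17 (adjusted p = 9.06e-09). SLC25A1 exports citrate for fatty acid synthesis and had 849, 793 and 913 at 24 h and 2229, 1796 and 1848 at 0 h, a change of -1.18 ± 0.14 (adjusted p = 1.09e-08). SLC25A13, the aspartate-glutamate carrier that serves the urea cycle, had 975, 1178 and 1081 at 48 h and 2373, 2538 and 1945 at 0 h, a change of -1.07 ± 0.16 (adjusted p = 1.51e-06). With arrays centred on their medians SLC25A1 changed by -0.97 and SLC25A13 by -0.81, under the 2-fold limit. SLC25A13 was also under it without 0 h replicate 2, at -0.99, and without 48 h replicate 1.

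SLC25A36, a carrier of pyrimidine nucleotides, had 51.7, 106 and 35.2 at 16 h and 300.3, 298 and 298 at 0 h, with a change of -2.04 ± 0.38 (adjusted p = 5.51e-05) and -1.45 and -1.68 on its other probe sets. Falls of about 2-fold were also called for SLC25A44, SLC25A38, SLC25A10, SLC25A11 and SLC25A4. The largest changes were -1.17 ± 0.23 for SLC25A44 at 8 h, and, both at 16 h, -1.09 ± 0.21 for SLC25A38 and -1.09 ± 0.25 for SLC25A10. SLC25A11 reached -1.03 ± 0.18 at 24 h and SLC25A4 -1.02 ± 0.16 at 12 h, and of these 5 genes none was called at 48 h. With median centring the changes of SLC25A38, SLC25A10, SLC25A11 and SLC25A4 were under the 2-fold limit, and so was that of SLC25A44 without 8 h replicate 1. As the mean of their probe sets, SLC25A4 changed by -0.67 and SLC25A44 by -0.85, also under the limit. SLC25A4, the adenine nucleotide carrier of muscle and other resting tissues, had 1157, 1343 and 1373 at 48 h and 1532, 1410.5 and 1775 at 0 h, while SLC25A5, its counterpart in many dividing cells, had 13588, 16729 and 15144 at 48 h and 9658, 10640.4 and 13436 at 0 h and a change of 0.44 ± 0.14 (adjusted p = 0.0098), under the limit. SLC25A3, which carries phosphate for ATP synthesis, had 16801, 17123 and 16795 at 48 h and 16535, 15977 and 18798 at 0 h, and its change at no time was called.

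SLC25A24, SLC25A32 and SLC25A17 were the SLC25 members called higher. SLC25A24 exchanges ATP-magnesium for phosphate. It had 1048, 1246 and 2493 at 24 h, against 457, 837 and 367 at 0 h, with a change of 1.48 ± 0.33 (adjusted p = 4.99e-04) despite wide spread among arrays. SLC25A32, a carrier of folate and flavin cofactor, had 1480.1, 1313 and 1533 at 4 h, against 503, 598 and 551 at 0 h. Its change was 1.36 ± 0.16 at 4 h (adjusted p = 5.00e-08) and 0.52 ± 0.16 at 48 h, when it was not called. SLC25A17, which sits in peroxisomes, had 395, 306 and 408 at 48 h and 217, 92.2 and 223 at 0 h. The change of 1.06 ± 0.28 (adjusted p = 0.0026) was 0.69 without 0 h replicate 2, the array with the high ACTB ratio, and 0.63 as the mean of its probe sets, and was then not called.

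Of the 12 metal carriers, 1 was higher and 4 were lower at 12 h, and 1 was higher and 1 lower at 48 h. The shares of all genes called higher and lower were 8.72% and 10.6% at 12 h, and 9.82% and 11.7% at 48 h. SLC39A14 (ZIP14), a liver importer of zinc, manganese and iron, had signals of 1193, 1885 and 2437 at 24 h, against 7719.9, 8019.9 and 6773 at 0 h. The change was -2.07 ± 0.16 (adjusted p = 2.50e-12), and it was still -1.65 ± 0.16 at 48 h. SLC39A8 (ZIP8), its close relative, fell and came back. It had 477, 430.2 and 458 at 8 h, against 1148, 1249 and 1004 at 0 h, a change of -1.28 ± 0.20 (adjusted p = 3.37e-06), or -0.91 and under the limit as the mean of its probe sets. At 48 h its signals were 899, 1076 and 1253, which overlapped those of 0 h, and 48 h was above 12 h by 1.01 ± 0.20 (adjusted p = 2.64e-04). SLC39A6 (ZIP6), a zinc importer of the plasma membrane, rose, with 2423, 2318 and 2182 at 24 h and 1091, 1046 and 886 at 0 h. Its change was 1.19 ± 0.16 (adjusted p = 3.69e-07), with 0.72 on the other probe set and 0.95, under the limit, as the mean of both. SLC39A1 and SLC39A7 were not called at any time.

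Carriers of nucleotide sugars load the Golgi and endoplasmic reticulum for glycosylation. The group of 13 was formed by family number, from the 12 SLC35 members and the nucleoside carrier SLC29A3. A family number does not show that each SLC35 member carries a nucleotide sugar. At 8 h 2 were higher and 4 lower, beside 8.41% and 10.1% of all genes. At 48 h 1 was higher and 1 lower, beside 9.82% and 11.7%. SLC35D1, which brings UDP-glucuronic acid into the endoplasmic reticulum, fell and stayed low. It had 499, 624 and 506 at 48 h, against 2102, 3517 and 2729 at 0 h. These values did not overlap, and the change was -2.30 ± 0.18 (adjusted p = 3.75e-12). SLC35A5 dipped, with 153, 114 and 157 at 4 h and 402, 477 and 514 at 0 h. The change of -1.60 ± 0.24 (adjusted p = 2.76e-06) was followed by signals of 479, 492 and 342 at 48 h, of which the first 2 were within the range of 0 h. SLC29A3, a nucleoside carrier of lysosomes, was called lower at 8 h alone (-1.55 ± 0.30). SLC35F2 had 351, 518 and 498 at 12 h and 183, 287 and 71.8 at 0 h, and its change of 1.41 ± 0.30 (adjusted p = 2.94e-04) was 0.92 without 0 h replicate 3 and then not called. SLC35C1, which carries GDP-fucose, was called higher at 8 h alone (1.01 ± 0.22), and not without 0 h replicate 2 or without 8 h replicate 3.

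Among 5 carriers of vitamins and cofactors, 1 was higher and 1 lower at 48 h, beside 9.82% and 11.7% of all genes. SLC46A3, a lysosomal carrier whose family includes the intestinal folate carrier, had 202, 209.6 and 151 at 8 h, against 709, 793 and 664 at 0 h, with a change of -1.86 ± 0.29 (adjusted p = 5.02e-06), and was still -1.62 ± 0.29 at 48 h. SLC33A1 brings acetyl-CoA into the endoplasmic reticulum. It had 327, 384 and 478 at 4 h, against 998, 1440.1 and 1187 at 0 h, a change of -1.56 ± 0.18 (adjusted p = 2.94e-08) that its other probe set matched at -1.59. It was not called at 24 h or 48 h. SLC19A1, the reduced folate carrier, had 783, 656 and 667 at 24 h and 196, 211 and 157 at 0 h on the probe set used, a change of 1.81 ± 0.28 (adjusted p = 2.84e-06). Its other tested probe set changed by -0.96, so the direction of SLC19A1 is uncertain.

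Of 10 members with family numbers of inorganic ion carriers, SLC4A1AP included, 3 were called higher at 48 h (SLC4A2, SLC26A2 and SLC12A4, the last on a probe set that others oppose) and 1 lower (SLC4A4). Of all genes, 9.82% were called higher and 11.7% lower at 48 h. All 3 higher members reached 300 only after 0 h, so their rise let them into the list. SLC4A2, which exchanges chloride for bicarbonate, had 299, 362 and 431 at 48 h and 192, 159 and 71.5 at 0 h, with a change of 1.34 ± 0.35 (adjusted p = 0.0022). SLC26A2, a sulfate carrier, went down and then up. It had 94.9, 19.5 and 96.98 at 4 h, against 159.7, 239 and 116 at 0 h, a change of -1.22 ± 0.40 (adjusted p = 0.0182), and 546, 538 and 300.2 at 48 h, a change of 1.34 ± 0.40 (adjusted p = 0.0074). The difference of 12 h from 4 h was 1.69 ± 0.40 (adjusted p = 0.0021). SLC12A4, a potassium-chloride cotransporter, had 329, 279 and 309 at 12 h and 56.1, 52.95 and 198 at 0 h, which gave 1.63 ± 0.41 (adjusted p = 0.002). Its other probe sets changed by -0.38 and -1.18 and their mean with this one by 0.02, so no direction is given for SLC12A4.

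**Figure D4:**
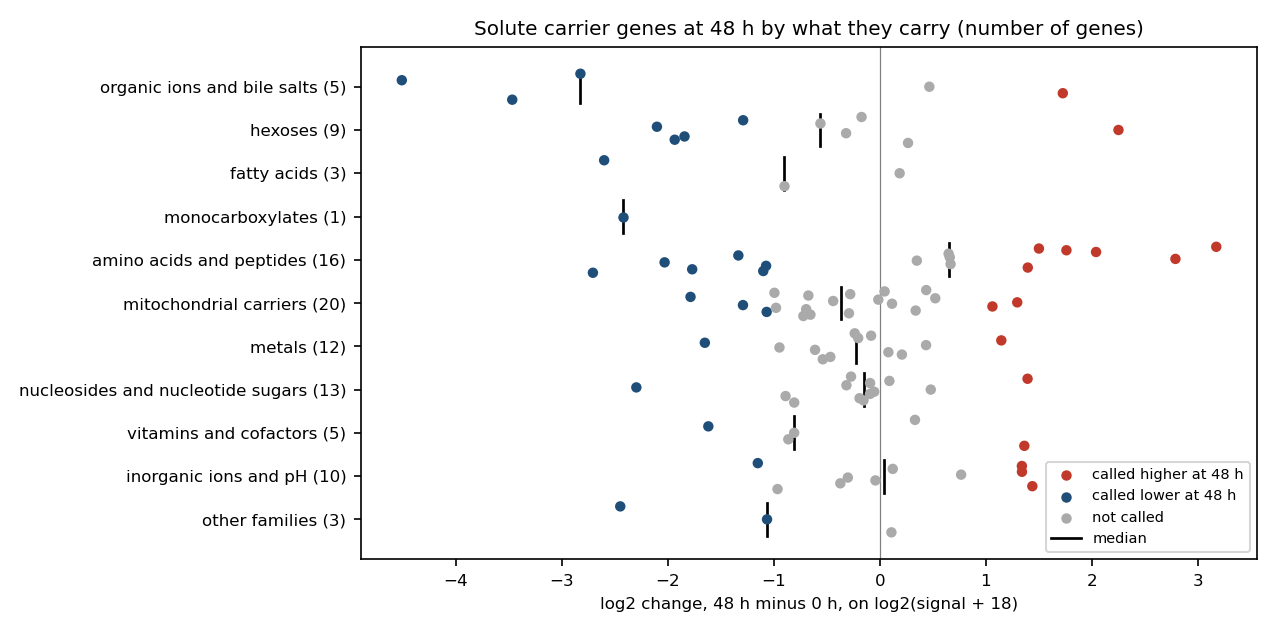
Log2 change at 48 h minus 0 h on the log2(signal + 18) scale for each member (points), in rows by the substrates of its family number with the number of genes, with the median of each row as a black bar. Called falls (blue) lie farthest left for SLC22A7 at -4.51 and SLC10A1 at -3.47, called rises (red) farthest right for SLC7A7 at 3.17 and SLC3A1 at 2.79, and the amino acid row holds 6 points of each colour.

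A further 9 members that were called lie outside the rule for named genes and are listed after their values were seen. SLC17A5, SLC31A1, SLC31A2, SLC35A1, SLC35A3, SLC38A10, SLC4A4, SLC5A3 and SLC66A2 each fell at 1 or more times, with largest changes between -1.04 for SLC31A1 at 16 h and -1.42 for SLC31A2 at 8 h. SLC31A1 is the main importer of copper and had 473, 407 and 578 at 16 h and 601, 1314 and 1304 at 0 h, with 0 h replicate 1 near the 16 h values. SLC4A4, a sodium-bicarbonate cotransporter, was called lower at 4 h (-1.20 ± 0.21) and again at 48 h (-1.15 ± 0.21), with -0.06 between them at 24 h. In all, 22 of the 62 called members were not called at 48 h. The 35 members never called had a largest change from 0 h of between 0.24 and 0.98 on the log2 scale, all under the 2-fold limit. Of these, 18 had an F-test adjusted p under 0.05 and so missed the call by the fold alone, and for the others a p that misses the threshold does not show that they kept their level.

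Transporters of other kinds were either lower or not called at 48 h. Of 20 measured ABC, SLCO, aquaporin and ATPase genes on a list of other membrane transporters, 0 were called higher and 10 lower at 48 h by limma, and 1 was higher and 12 lower at an unadjusted p under 0.05, a rule that 22.4% and 24.2% of all genes passed higher and lower. By the call, 9.82% of all genes were higher and 11.7% lower at 48 h. At 4 h 3 of the 20 were called higher and 5 lower, beside 7.6% and 7.1% of all genes. Of the SLCO carriers, which take up organic anions beside SLC10A1 and SLC22A7, SLCO2B1 changed by -3.42 and SLCO1B1 by -1.96 at 48 h and both were called, while the dim SLCO1B3 (1.11, adjusted p = 0.0654 in limma) and SLCO4A1 (0.22) were not. Of 11 measured hepatocyte transcription factors, 4 were called lower at 48 h and 8 at 12 h, beside 11.7% and 10.6% of all genes. At either time 0 were called higher by limma, also at an unadjusted p under 0.05, which 20% of all genes passed higher at 12 h. Whether these factors bear on the carriers was not tested.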

How the data were processed

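Values are 1 linear intensity per probe set and array, which the authors deposited after MAS5, per the submitters' processing notes. The MAS5 version and target level are not stated there. The table used has no detection calls. Intensities entered as log2(signal + 18), which understates changes of dim genes. Probe sets above the 40th percentile on at least 3 of 24 arrays were tested, 1 per gene (highest mean), in limma 3.58.1 (R 4.3.3; lmFit, eBayes with trend, 16 residual degrees of freedom) over all 24 arrays. The call needed a difference of 2-fold or more and an adjusted p under 0.05 (two-sided, Benjamini-Hochberg over the 9966 genes). Labels do not say that replicates are separate cultures, so p-values reflect the spread of these samples alone, and that spread may be technical. Members, gene lists and tests were chosen with earlier results of these data known. Named are the members of SLC2, SLC7 with SLC3A2, SLC16, SLC22, SLC25, SLC27 and SLC39, and up to 14 largest separated rises and 14 falls of other families. The fit was tested on simulated data. Gene names and promoters come from the array's annotation and RefSeq (GRCh38.p14), protein sequences were not used here. Figures used matplotlib 3.10.9 in Python 3.11.15. Alternatives were other pseudocounts, scalings, filters, probe set rules, thresholds, left-out arrays and a replicate block.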

Additional observations from a re-analysis of the deposited data

How the results depend on the processing

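Of 395 recomputed counts of members, 367 stayed within 1.5 times the reported count, and of 1020 recomputed changes of named genes none turned its sign, 37 lost their call and 13 gained one. With a larger pseudocount, 8 members were higher at 12 h, 5 were lower at 4 h than at 1 h, and 2 were higher at 48 h than at 12 h. Median centring left 17 lower at 16 h and 16 at 24 h. Averaging all probe sets of each gene, 7 were higher at 16 h. Over every solute carrier gene tested, 4 were higher at 1 h and 8 were lower at 48 h than at 12 h. With a mean of 300 over all 24 arrays as the threshold, 11 were lower at 4 h, 10 higher at 48 h, 5 lower at 4 h than at 1 h and 2 higher at 12 h than at 4 h. With a threshold of 600, which leaves fewer members, 5, 7, 6, 5, 8 and 7 were higher at 4, 8, 12, 16, 24 and 48 h, 8 and 16 lower at 4 h and 8 h, 7 higher and 4 lower at 4 h than at 1 h, 1 higher at 12 h than at 4 h, and the F-test called 38. Where no construction is named, the cause was not tested.

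Leaving out 1 array at a time gave 58 to 63 members by the F-test. The counts higher and lower against 0 h were 2 to 5 and 0 at 1 h, 8 to 11 and 13 to 17 at 4 h, 12 to 15 and 22 to 26 at 8 h, 10 to 15 and 24 to 28 at 12 h, 10 to 15 and 26 to 30 at 16 h, 13 to 16 and 23 to 29 at 24 h, and 14 to 16 and 22 to 27 at 48 h. Between later times they were 9 to 12 and 7 to 10 for 4 h over 1 h, 2 to 4 and 6 to 9 for 12 h over 4 h, and 2 to 5 and 4 to 6 for 48 h over 12 h. The count at 1 h was 5 without 0 h replicate 2 and 4 without 1 h replicate 3. Leaving out 0 h replicate 2, the array with the high ACTB ratio, also gave other ends of these ranges. The F-test then called 58, and 13, 23 and 22 members were lower at 4, 24 and 48 h. Those higher were then 11, 15 and 15 at 4, 12 and 16 h. Replicate numbers did not pair the arrays, since correlations of same-numbered deviations lay between -0.03 and 0.03, and the replicate block gave 62 by the F-test and 16 higher and 24 lower at 48 h. Signals near the array's floor limit the size of falls, as for SLC22A7, SLC38A4 and SLC17A4. No detection call tells whether such a gene was measured there, and 3 arrays per time limit what smaller changes can be seen.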
